A study of Mus musculus with 9 samples.

Results

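The genes described are 10 antioxidant genes of the NRF2 pathway, chosen by symbol: Nfe2l2, Keap1, Slc7a11, Gclc, Gclm, Prdx1, Srxn1, Txnrd1, Hmox1 and Nqo1. Each symbol occurred once among the 55335 genes of the expression table, and all 10 genes were among the 11657 genes tested, which reached 1 FPKM in 3 or more of the 9 libraries. RNA-seq was carried out on macrophages differentiated with M-CSF, a macrophage growth factor, from the bone marrow of wild-type male C57BL/6 mice aged 4 to 6 weeks (BMDMs). The M+AnxA5 group received LPS at 1 µg/mL, which activates TLR4, IFN-γ at 30 ng/mL, a cytokine of lymphocytes, and 2 µg/mL recombinant annexin A5 (AnxA5), a protein that binds phosphatidylserine. The Model group received the same LPS and IFN-γ without AnxA5, and the Control group received none of these agents. All groups were collected at 6 h, with 3 libraries each. The questions were how these genes differed between stimulated and resting BMDMs, and whether AnxA5 changed them in stimulated BMDMs. The labels do not say whether the 3 libraries of a group came from separate animals or cultures, so the p-values rest on a spread among libraries that may be technical.

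NRF2, the product of Nfe2l2, is a transcription factor that pairs with small MAF proteins on antioxidant response elements and switches on genes for antioxidant and detoxifying enzymes. In resting cells KEAP1 holds NRF2 and passes it to a CUL3 ubiquitin ligase for breakdown, and oxidants or electrophiles that modify KEAP1 cysteines let NRF2 accumulate. NRF2 is therefore controlled largely at the protein level, which RNA-seq does not measure. Several of the genes also answer to other factors in macrophages: Hmox1 is repressed by BACH1, and AP-1 binds DNA sequences that resemble the antioxidant response element.

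The deposited values are FPKM, fragments scaled to transcript length and library size. The depth, estimated from the smallest steps between low values, was 26.6M to 37.0M fragments per library (M, mega), so that 1 fragment on a transcript of 1 kb was worth 0.027 to 0.0377 FPKM, far below the level of any of the 10 genes. All 10 macrophage markers examined averaged at least 1 FPKM in every group, and their summed level was 7303 to 8192 FPKM in M+AnxA5, 8006 to 8943 FPKM in Model and 13926 to 14980 FPKM in Control. Lyz2 made up most of these sums, with means of 5792 FPKM in M+AnxA5, 6388 in Model and 12129 in Control. Adgre1 (606 against 329 FPKM) and Mertk (142 against 47.5) averaged higher in Model than in Control, as did Fcgr1 and Cd14. The other macrophage markers averaged lower in Model than in Control. The summed dendritic cell markers were 11.6 to 13.2 FPKM in M+AnxA5, 12.9 to 14.7 FPKM in Model and 0.384 to 0.577 FPKM in Control, with Clec9a and Xcr1 the only members of that list at 1 FPKM or more. Neutrophil markers summed to 261 to 272 FPKM in M+AnxA5, 227 to 305 FPKM in Model and 193 to 263 FPKM in Control, and fibroblast markers to 65.8 to 117 FPKM in M+AnxA5, 75.8 to 116 FPKM in Model and 100.4 to 166 FPKM in Control. S100a8 and S100a9 made up most of the neutrophil sums, with means of 89.4 and 151 FPKM in Model and 65.8 and 133 in Control. Camp was also higher in Model, while Mpo, Elane, Prtn3 and Ltf were lower, Elane at 0.127 FPKM against 6.22 in Control. Ly6g averaged at most 0.0753 FPKM in any group. The part of dendritic cells, neutrophils and fibroblasts in the results was not tested. T and NK cell, B cell, mast cell and erythroid markers summed to at most 2.63 FPKM in any library. In bulk RNA a change in the number of cells of a type and a change in RNA per cell cannot be told apart. The library numbered 2 held the highest share of ribosomal fragments (the genes Gm23935 and AY036118) in each group, with 3.59% of the summed FPKM in M+AnxA5, 3.16% in Model and 7.47% in Control.

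DEGs had a fold change above 1.2 and an adjusted p below 0.05 (limma on log2(FPKM + 1), Benjamini-Hochberg adjustment over all genes tested). This scale understates changes of genes with low values. In Model against Control, 8 of the 10 genes passed these thresholds, a share close to the 76.8% of all genes tested that passed in either direction. Of the 8, 7 rose (Slc7a11, Hmox1, Prdx1, Keap1, Txnrd1, Srxn1 and Nfe2l2) and 1 fell (Gclc), while Gclm and Nqo1 did not pass. The directions were distributed otherwise over all genes tested, of which 16.5% were called higher and 60.3% lower in the same comparison, and the median log2 fold change was -0.45, against 0.75 over the 10 genes. The overall shift depends on the scaling, with a median over all genes of -0.24 after upper-quartile scaling and -0.10 after quantile normalization. Relative to the median of all genes, the 7 genes that rose lay between 0.73 (Nfe2l2) and 3.84 (Slc7a11) on the log2 scale, and Gclc lay at -0.27.

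**Figure D1:**
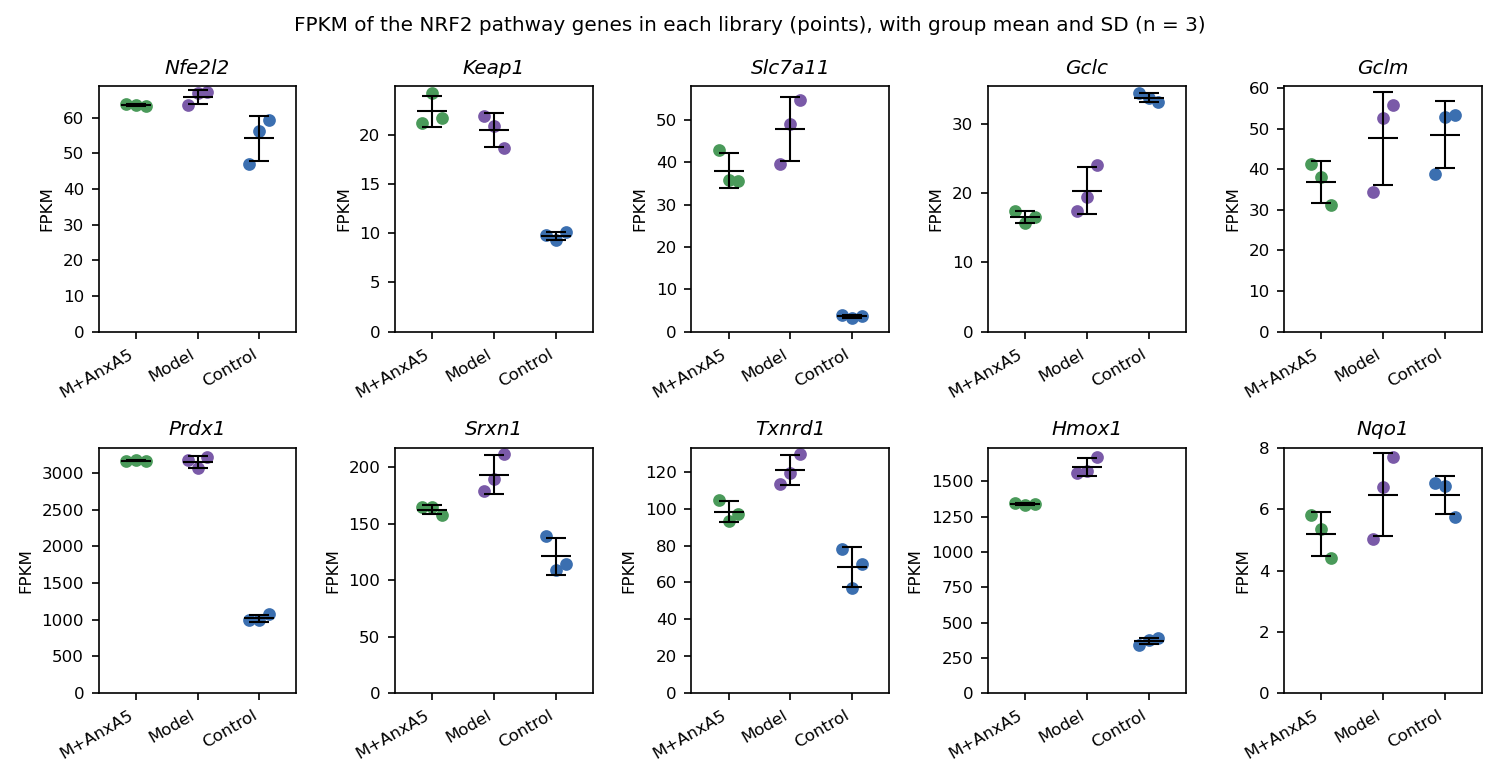
FPKM of each gene (y axes, linear, from 0) in the 3 M+AnxA5, 3 Model and 3 Control libraries (points, replicates 1 to 3 from left to right), with the mean and SD of each group as bars. Slc7a11 averaged 38.1 FPKM in M+AnxA5, 47.8 in Model and 3.61 in Control, Gclc lay lower in both stimulated groups than in Control, and the Nqo1 and Gclm libraries of the 3 groups overlapped.

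Promoter sequences are shown because 7 of the genes rose in the same comparison and the pathway's factor has a known DNA motif. RefSeq windows of GRCm38.p6, from 250 bases before to 50 bases after a start site, were present for 8 of the 10 genes (10 windows, since Txnrd1 has 3), with Hmox1 and Gclc not among them. The core of the antioxidant response element was searched as TGACNNNGC on both strands, and it occurred in 5 of the 10 windows, those of Nfe2l2, Gclm, Prdx1, Srxn1 and 1 of Txnrd1, and in 12.4% of all 32851 windows. The AP-1 motif TGANTCA occurred in the windows of Prdx1 and Srxn1 and in 7.81% of all windows, and the E-box CACGTG in none of these genes' windows and in 7.15% of all. In Prdx1 the match to the antioxidant response element overlaps a match to AP-1. Such a match is a match of letters and says nothing about binding. Capitals mark the match to TGACNNNGC, on the strand on which the gene is read or its reverse complement, for the 4 genes with a match before the start site.
Nfe2l2 (chr2:75704855-75704913, minus strand): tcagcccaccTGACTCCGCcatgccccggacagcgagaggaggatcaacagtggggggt
Gclm (chr3:122245383-122245471, plus strand): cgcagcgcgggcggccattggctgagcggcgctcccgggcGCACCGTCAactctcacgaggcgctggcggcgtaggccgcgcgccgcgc
Prdx1 (chr4:116685426-116685514, plus strand): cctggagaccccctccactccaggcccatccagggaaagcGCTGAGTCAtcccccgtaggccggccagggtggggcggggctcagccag
Txnrd1 (chr10:82859074-82859162, plus strand): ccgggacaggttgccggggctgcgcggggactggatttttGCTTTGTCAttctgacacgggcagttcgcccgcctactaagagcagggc
In Srxn1 the match to TGACNNNGC does not lie wholly before the start site. The stretch before the start site holds 2 matches to TGANTCA, in capitals here, which begin 102 and 45 bases before the start.
Srxn1 (chr2:152105412-152105495, plus strand): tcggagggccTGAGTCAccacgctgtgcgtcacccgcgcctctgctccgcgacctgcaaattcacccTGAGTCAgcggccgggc
Of the genes whose windows held TGACNNNGC, Nfe2l2, Prdx1, Srxn1 and Txnrd1 rose in Model against Control and Gclm did not pass the test. Keap1 and Slc7a11, which also rose, had no match in their windows.

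Of the 2 regulators, Keap1 had the larger fold change. Nfe2l2 (GRCm38, as for the positions that follow, chromosome 2, 75675513 to 75704641) was at 63.8, 63.4 and 63.2 FPKM in the M+AnxA5 libraries, 63.4, 66.8 and 67.1 FPKM in the Model libraries and 47.1, 56.4 and 59.2 FPKM in the Control libraries. Every stimulated library lay above every Control library, but the nearest Model and Control libraries differed by less than the range of the Control group. The log2 fold change of Nfe2l2 in Model against Control was 0.28 (SE 0.075, adjusted p = 0.00704, limma), just past the fold threshold, and it lost the call after quantile normalization (0.16, adjusted p = 0.114) and, by its size alone, without Control replicate 1 (0.18, adjusted p = 0.00496). Keap1 (chromosome 9, 21229730 to 21239361), which encodes the adaptor that marks NRF2 for degradation, was at 21.2, 24.2 and 21.7 FPKM in M+AnxA5, 22.0, 20.9 and 18.6 FPKM in Model and 9.79, 9.33 and 10.1 FPKM in Control. The stimulated libraries were all well above the Control libraries, with a log2 fold change of 0.999 in Model against Control (SE 0.071, adjusted p = 1.39e-06, limma). The ratio of Nfe2l2 to Keap1 FPKM within a library was 3.23 ± 0.357 in Model and 5.57 ± 0.661 in Control (SD, n = 3 each, exact permutation test, two-sided p = 0.1, the smallest that 3 against 3 libraries allow; adjusted p = 0.129 over 9 tests of such ratios). An antisense gene, Gm16754, overlaps Keap1 and averaged 1.43 FPKM in M+AnxA5, 1.96 FPKM in Model and 0.424 FPKM in Control. Whether the counting used strand is not given in the sources used here.

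The genes of glutathione synthesis moved apart. Slc7a11 (chromosome 3, 49892526 to 50443614) encodes the light chain of the cystine/glutamate exchanger, which imports the cystine from which glutathione is made. It was at 42.8, 35.8 and 35.5 FPKM in M+AnxA5, 39.6, 49.0 and 54.7 FPKM in Model and 3.90, 3.15 and 3.79 FPKM in Control. No stimulated library came near the Control libraries, and with a log2 fold change of 3.39 in Model against Control (SE 0.12, adjusted p = 1.68e-08, limma) it was the gene with the largest rise of the 10, 13.2-fold by the mean FPKM. Its level stood at percentile 92.3 of the genes tested in Model and at percentile 33.7 in Control. Gclc and Gclm encode the catalytic and the modifier subunit of glutamate-cysteine ligase, the enzyme of the first and rate-limiting step. Gclc (chromosome 9, 77754535 to 77794485) was at 17.5, 15.6 and 16.5 FPKM in M+AnxA5, 17.5, 19.4 and 24.1 FPKM in Model and 34.5, 33.6 and 33.1 FPKM in Control. Here the order was turned round, with every stimulated library below every Control library. The log2 fold change of Gclc in Model against Control was -0.72 (SE 0.099, adjusted p = 1.22e-04, limma), and it stayed called and negative under each of 24 alternatives, from -0.84 to -0.47. Gclm (chromosome 3, 122245557 to 122270732) was at 41.3, 38.1 and 31.2 FPKM in M+AnxA5, 34.4, 52.7 and 55.8 FPKM in Model and 39.0, 53.0 and 53.5 FPKM in Control. Its libraries overlapped between all groups and it had the widest spread within Model of the 10 genes (coefficient of variation 24.2%). The log2 fold change in Model against Control was -0.04, with a 95% interval of -0.49 to 0.41, so that a change of up to that size in either direction could not be told from none at this spread (adjusted p = 0.849, limma). The ratio of Gclc to Gclm FPKM was 0.436 ± 0.0693 in Model and 0.713 ± 0.150 in Control (SD, n = 3 each, exact permutation test, two-sided p = 0.1, the smallest possible).

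The thioredoxin system held the most abundant gene of the set. Prdx1 (chromosome 4, 116685544 to 116700822) encodes peroxiredoxin 1, a thiol enzyme that reduces hydrogen peroxide. It was at 3161, 3175 and 3167 FPKM in M+AnxA5, 3175, 3063 and 3218 FPKM in Model and 996, 989 and 1073 FPKM in Control. By its mean it ranked 9 among the genes tested in M+AnxA5, 8 in Model and 36 in Control. The log2 fold change in Model against Control was 1.63 (SE 0.047, adjusted p = 3.51e-09, limma), which is a 3.09-fold rise. Srxn1 (chromosome 2, 152105516 to 152111376) encodes sulfiredoxin, which repairs peroxiredoxins that have been over-oxidised. It was at 165, 165 and 158 FPKM in M+AnxA5, 179, 189 and 212 FPKM in Model and 139, 109 and 115 FPKM in Control. The 3 groups did not overlap for Srxn1, with Model highest and Control lowest, and the log2 fold change in Model against Control was 0.68 (SE 0.094, adjusted p = 1.21e-04, limma). Txnrd1 (chromosome 10, 82833951 to 82897712), the cytosolic reductase that keeps thioredoxin reduced at the cost of NADPH, was at 105, 93.2 and 97.3 FPKM in M+AnxA5, 114, 119 and 130 FPKM in Model and 78.4, 56.8 and 70.0 FPKM in Control. Its groups followed the same order without overlap, with a log2 fold change of 0.82 in Model against Control (SE 0.11, adjusted p = 8.39e-05, limma). Eid3, which overlaps Txnrd1 on the same strand, averaged 2.82 FPKM in M+AnxA5, 3.13 FPKM in Model and 1.61 FPKM in Control.

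Hmox1 and Nqo1, which are widely used as reporters of NRF2 activity, differed in their response. Hmox1 (chromosome 8, 75093621 to 75100589) encodes haem oxygenase 1, which splits haem into biliverdin, carbon monoxide and iron. It was at 1348, 1336 and 1339 FPKM in M+AnxA5, 1560, 1576 and 1674 FPKM in Model and 344, 373 and 390 FPKM in Control. The groups did not overlap, and the log2 fold change in Model against Control was 2.12 (SE 0.053, adjusted p = 1.60e-09, limma), or 4.34-fold. Nqo1 (chromosome 8, 107388225 to 107403206), a reductase that takes quinones to hydroquinones, was at 5.83, 5.36 and 4.42 FPKM in M+AnxA5, 5.02, 6.73 and 7.72 FPKM in Model and 6.88, 6.76 and 5.74 FPKM in Control. It was the least abundant of the 10 genes in both stimulated groups, and its libraries overlapped in each comparison. The log2 fold change of Nqo1 in Model against Control was -0.01, with a 95% interval of -0.33 to 0.31 (adjusted p = 0.961, limma), and its direction turned with the scaling: it was 0.22 after upper-quartile scaling (adjusted p = 0.193) and 0.38 after quantile normalization (adjusted p = 0.0322).

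**Figure D2:**
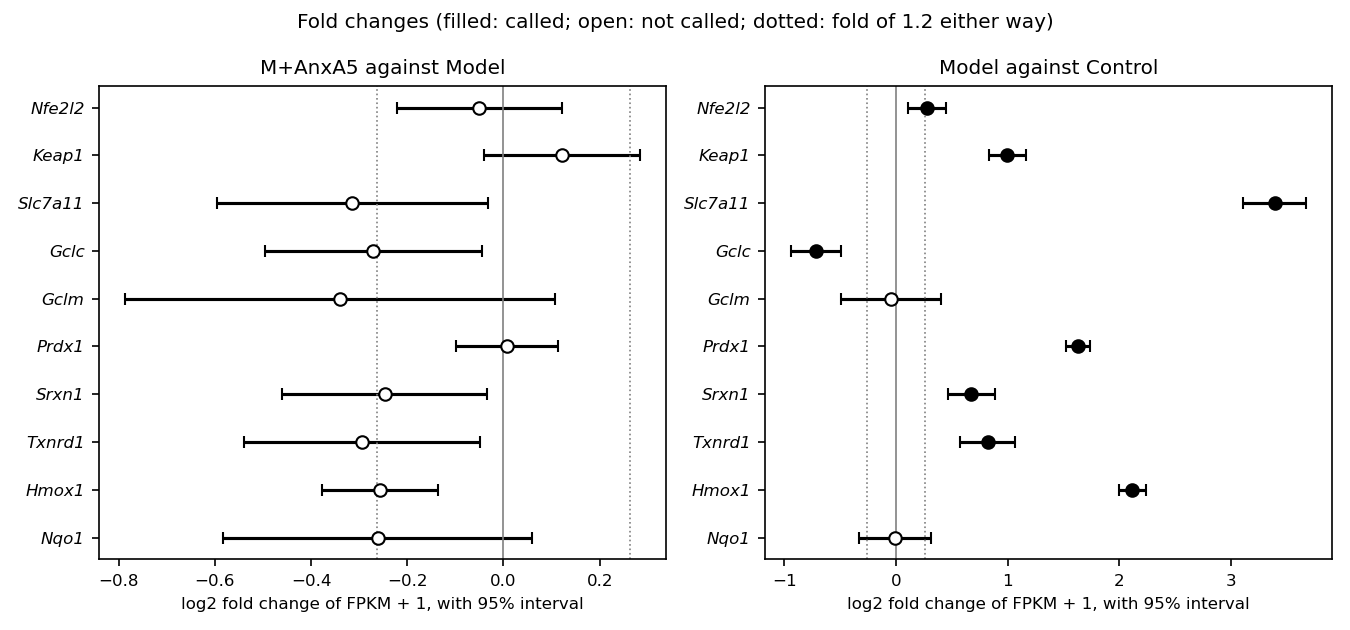
Log2 fold changes of the 10 genes on the log2(FPKM + 1) scale with 95% intervals, for M+AnxA5 against Model (left) and Model against Control (right), with a separate x scale in each panel. Filled points passed both thresholds and open points did not, and dotted lines mark a fold of 1.2 in either direction. On the right 7 genes lie above 0 and are filled, from 0.28 (Nfe2l2) to 3.39 (Slc7a11), and Gclc is filled at -0.72. On the left no point is filled and 8 of 10 lie below 0.

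With AnxA5, none of the 10 genes met both thresholds against Model (limma), where 1.95% of all genes tested were called higher and 0.815% lower. At an unadjusted p below 0.05 there were 5 genes, Hmox1, Gclc, Txnrd1, Srxn1 and Slc7a11, all lower with AnxA5, where 8.87% of all genes tested were lower at that p. Hmox1 alone had an adjusted p below 0.05, where 1.08% of all genes tested were lower with no fold threshold. Its mean was 1341 ± 5.85 FPKM in M+AnxA5 and 1603 ± 61.9 FPKM in Model (SD, n = 3 each), and its log2 fold change of -0.26 (SE 0.053, 95% interval -0.38 to -0.14, adjusted p = 0.0394) fell just short of the fold threshold (-0.257, where log2 of 1.2 is 0.263). Over the 24 alternatives the value for Hmox1 lay between -0.29 and -0.23, with an adjusted p from 0.0144 to 0.275.

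Of the 10 values with AnxA5, 7 lay between -0.34 and -0.25, Hmox1 included. The log2 fold change against Model was -0.31 for Slc7a11 (95% interval -0.60 to -0.03, adjusted p = 0.240, limma). It was -0.29 for Txnrd1 (-0.54 to -0.05, adjusted p = 0.206) and -0.25 for Srxn1 (-0.46 to -0.03, adjusted p = 0.220). Both enzymes act on the thioredoxin side of the pathway. Gclc was at -0.27 (-0.50 to -0.05, adjusted p = 0.206), Gclm at -0.34 (-0.79 to 0.11, adjusted p = 0.429) and Nqo1 at -0.26 (-0.58 to 0.06, adjusted p = 0.396). For Gclm and Nqo1 the intervals include 0. The regulators and Prdx1 lay closer to 0, with Nfe2l2 at -0.05 (-0.22 to 0.12, adjusted p = 0.801), Keap1 at 0.12 (-0.04 to 0.28, adjusted p = 0.438) and Prdx1 at 0.01 (-0.10 to 0.11, adjusted p = 0.957). The interval for Prdx1 is the narrowest, and the sign of its value changed with TPM scaling and with quantile normalization. The median over the 10 genes was -0.26, beside -0.02 over all genes tested, and 8 of the 10 values were below 0, beside 56.1% of all genes tested. The libraries of M+AnxA5 lay entirely below those of Model for Hmox1, Txnrd1 and Srxn1, as for 14.2% of all genes tested, and overlapped for the other 7 genes. For Gclc the overlap rests on M+AnxA5 replicate 1 and Model replicate 1, both at 17.5 FPKM.

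Within the Model group the genes deviated together. Model replicate 1 had the lowest value of the group for 8 of the 10 genes, all but Keap1 and Prdx1, and Model replicate 3 had the highest value for 9, all but Keap1. The median deviation from the group mean over the 10 genes was -0.10 on the log2 scale in Model replicate 1 and 0.12 in Model replicate 3, beside -0.01 and 0.00197 over all genes tested. In M+AnxA5, replicate 1 was highest for 7 genes, with a median deviation of 0.05. Keap1 ran against the others in Model, with its highest value in replicate 1 and its lowest in replicate 3. The differences with AnxA5 moved with the Model library left out: without Model replicate 1 the log2 fold change was -0.55 for Gclm, -0.41 for Nqo1, -0.37 for Gclc and -0.44 for Slc7a11. Without Model replicate 3 it was -0.21 for Gclm, -0.14 for Nqo1, -0.15 for Gclc and -0.21 for Slc7a11. Leaving out M+AnxA5 replicate 3, the lowest of its group for Gclm, Nqo1 and Slc7a11, also moved values, for example Nqo1 to -0.17. None of these 4 genes was called in any of these fits.

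**Figure D3:**
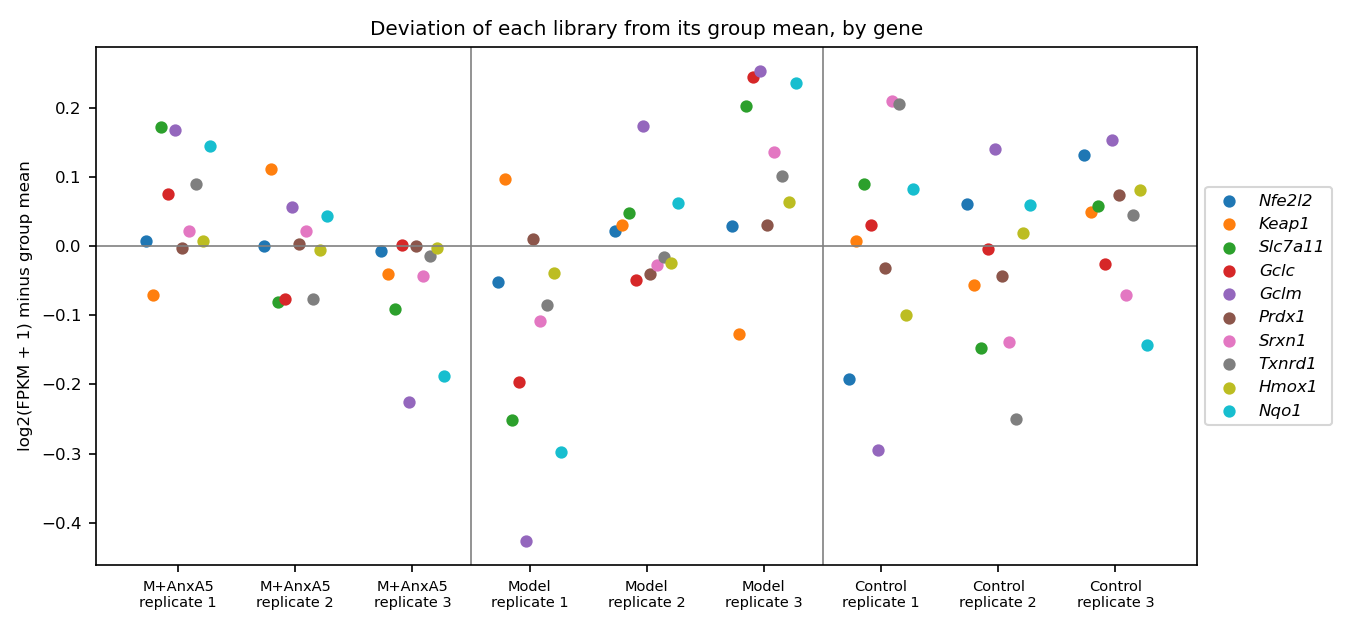
Deviation of each library from its group mean on the log2(FPKM + 1) scale (y axis) for each of the 10 genes (colours) in the 3 libraries of M+AnxA5, Model and Control (x axis). In Model replicate 1 the genes lie below 0 with the exception of Keap1 and Prdx1, and in Model replicate 3 they lie above 0 with the exception of Keap1.

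M+AnxA5 and Control were also compared, with libraries that the other comparisons also use, so that the 3 comparisons are not independent. In M+AnxA5 against Control, 7 of the 10 genes were called, 6 higher and 1 lower, where 16.4% of all genes tested were called higher and 61.1% lower. The log2 fold changes were 3.08 for Slc7a11, 1.86 for Hmox1, 1.64 for Prdx1, 1.12 for Keap1, 0.53 for Txnrd1 and 0.43 for Srxn1, with adjusted p-values of at most 0.00214 (limma). Srxn1 lost its call after quantile normalization (0.09, adjusted p = 0.460). Gclc fell by 0.99 (adjusted p = 1.34e-05), to 16.5 ± 0.917 FPKM in M+AnxA5, against 33.7 ± 0.693 FPKM in Control (SD, n = 3 each). Nfe2l2 had a log2 fold change of 0.23 with an adjusted p of 0.0186, under the fold threshold, and it was called with TPM (0.31), with TPM without Gm23935 and AY036118 (0.28), with upper-quartile scaling (0.48, adjusted p = 3.07e-04) and without Control replicate 3 (0.29). Gclm (-0.38, adjusted p = 0.0991) and Nqo1 (-0.27, adjusted p = 0.104) were not called over the 9 libraries, and both were called when only the 6 libraries compared were fitted (adjusted p = 0.048 and 0.0475) or Model replicate 1 was left out (adjusted p = 0.0338 and 0.0408).

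Other genes of the pathway were taken from 6 lists holding 74 genes, of which 67 were tested. In Model against Control 22 of these rose and 33 fell, where 16.5% of all genes tested were called higher and 60.3% lower, with a median log2 fold change of -0.37 beside -0.45 over all genes tested. Among NRF2 partners and regulators, 5 of 10 rose and 2 fell. Those that fell were Bach1 (-0.50, adjusted p = 1.74e-06, limma) and Cul3 (-0.45, adjusted p = 2.24e-04). Maff, a small MAF protein, averaged 14.9 ± 0.380 FPKM in M+AnxA5, 12.5 ± 0.834 FPKM in Model and 3.35 ± 0.968 FPKM in Control (SD, n = 3 each). Nfe2l1, a relative of NRF2 known for control of proteasome genes, rose by 0.67 (adjusted p = 3.14e-04, limma), and Mafg did not pass the fold threshold (-0.16, adjusted p = 0.0391). Of the genes of glutathione supply and use, 8 of 18 rose and 9 fell, and the 8 include the synthetase gene Gss (0.66, adjusted p = 8.38e-05). The 9 include the glutathione peroxidase genes Gpx1 (-1.70) and Gpx4 (-0.80). Of 11 thioredoxin and peroxiredoxin genes 3 rose and 5 fell. Among those that rose, Prdx5, a peroxiredoxin, had 648 ± 31.9 FPKM in Model and 109 ± 2.29 FPKM in Control (SD, n = 3 each, log2 fold change 2.55). Txn1, the cytosolic thioredoxin that Txnrd1 reduces, had 636 ± 41.4 FPKM in Model and 204 ± 9.99 FPKM in Control (log2 fold change 1.64). Among those that fell were Sesn1 (-4.28), Prdx3 (-0.62), Txnrd2 (-0.97) and Txn2 (-0.37). Sesn1, with the largest change of this list, had 1.02 ± 0.0502 FPKM in Model and 38.5 ± 6.16 FPKM in Control. Of the 6 genes in the NADPH supply list none rose and 3 fell, a share of lower calls no larger than the 60.3% of all genes tested. Idh1, the cytosolic isocitrate dehydrogenase, fell by 3.07 to 11.6 ± 0.530 FPKM in Model, against 104 ± 1.09 FPKM in Control. Taldo1 and Tkt, of the pentose phosphate pathway but not of its NADPH-producing steps, fell by 1.02 and 0.78. Pgd and G6pdx, the NADPH-producing enzymes of the pentose phosphate pathway, had positive values below the fold threshold (0.19 and 0.16, adjusted p = 0.00192 and 0.0293).

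Of 8 genes of haem and iron handling, 2 rose and 5 fell in Model against Control, a share of lower calls close to the 60.3% of all genes tested. Blvrb, a biliverdin reductase, rose by 0.70, and Fth1, the ferritin heavy chain, by 0.51 (adjusted p = 6.12e-06 and 0.00254, limma). Among the 5 that fell were Blvra, another biliverdin reductase, by 1.85, and Ftl1, the ferritin light chain, by 0.97 (adjusted p = 4.20e-09 and 4.83e-06, limma). Slc40a1, the iron exporter ferroportin, fell by 2.29 to 5.92 ± 0.190 FPKM in Model, against 33.0 ± 4.90 FPKM in Control (SD, n = 3 each). Hmox1, whose product releases iron from haem, had risen in the same libraries. Iron was not measured, and a link between these changes was not tested. Of 14 other NRF2 targets and antioxidant enzymes, 4 rose and 9 fell, again with a share of lower calls near that of all genes tested. Marco, a scavenger receptor of macrophages, averaged 461 ± 82.9 FPKM in M+AnxA5, 686 ± 56.3 FPKM in Model and 3.90 ± 0.269 FPKM in Control. Cat, which encodes catalase, fell by 1.23 in Model against Control (adjusted p = 6.62e-07).

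In M+AnxA5 against Model, 7 of the 67 genes fell and 0 rose (limma), beside 0.815% of all genes tested called lower and 1.95% called higher. The median over the 67 genes was -0.02, as over all genes tested, and 37 of them were below 0. Of the 7, 4 belong to the glutathione list: Gss, glutathione synthetase (-0.43, adjusted p = 0.0339), Gsr, glutathione reductase (-0.28, adjusted p = 0.0317), and the exporters of conjugates Abcc1 (-0.45, adjusted p = 0.0252) and Abcc4 (-0.39, adjusted p = 0.0418). Gss was at 3.86 ± 0.451 FPKM in M+AnxA5, 5.53 ± 0.456 FPKM in Model and 3.14 ± 0.261 FPKM in Control (SD, n = 3 each). Gsr was at 95.7 ± 6.53 FPKM in M+AnxA5, 116 ± 3.72 FPKM in Model and 65.3 ± 2.12 FPKM in Control. The other 3 were Slc40a1 (-0.53, adjusted p = 0.0219), the haem transporter gene Slc48a1 (-0.30, adjusted p = 0.0230) and Marco (-0.58, adjusted p = 0.0389). The calls depended on the libraries in the fit, while their sizes changed by less than 1.5 times. The count of 7 was 0 without Model replicate 2, without Model replicate 3 or without M+AnxA5 replicate 2. It was 1 (Fth1, called higher) without M+AnxA5 replicate 3 and 4 without Control replicate 3. Without Control replicate 2 or Model replicate 1 it was 5, without Control replicate 1 it was 6 and without M+AnxA5 replicate 1 it was 8, not always of the same genes. It was 0 with a block for the replicate number, and 0 without the 3 libraries numbered 2, which held the most ribosomal fragments. When 1 library was left out the 7 log2 fold changes stayed between -0.71 and -0.22. Slc40a1, for example, was at -0.54 without Model replicate 2, with an adjusted p of 0.0817.

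**Figure D4:**
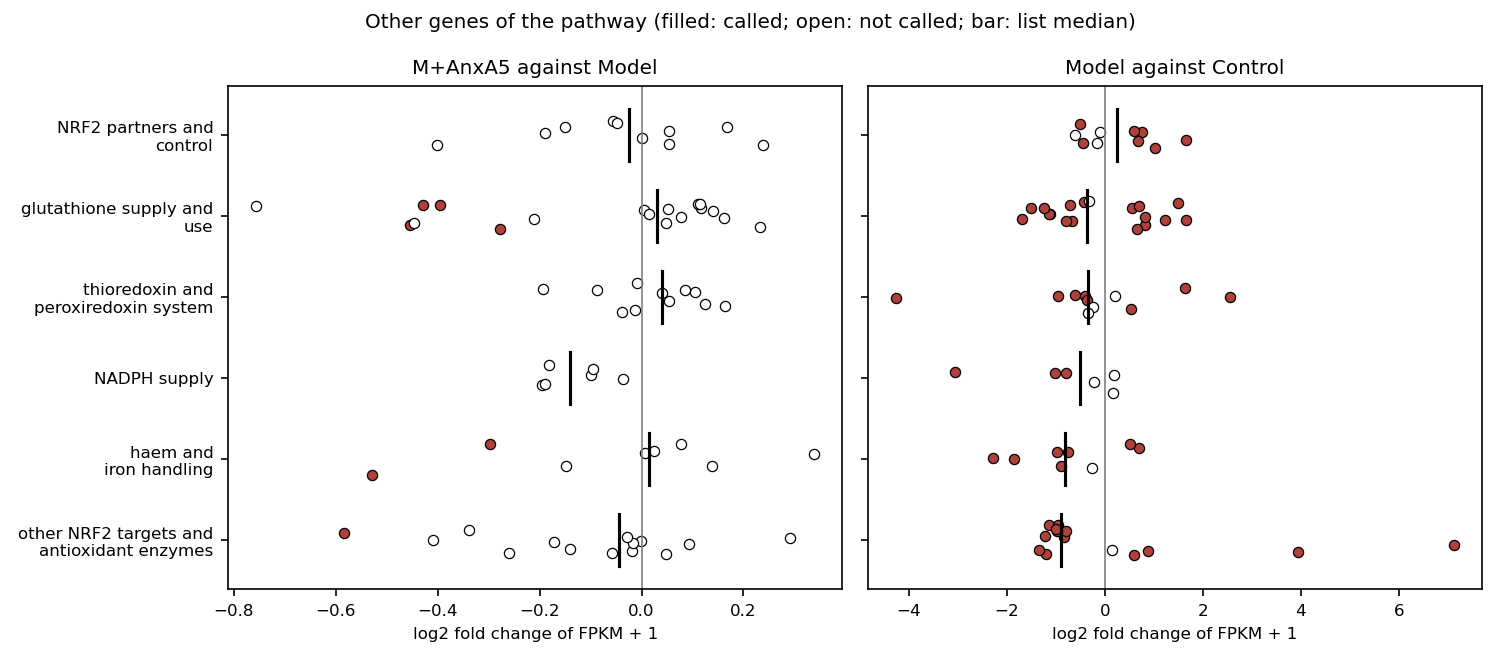
Log2 fold changes of the 67 tested genes in the 6 lists of other pathway genes (rows, points spread vertically for visibility), for M+AnxA5 against Model (left) and Model against Control (right), with separate x scales. Filled points were called, open points were not and bars mark the median of each list. On the left the 7 filled points all lie below 0, 4 of them in the glutathione list, and on the right filled points lie on both sides of 0 in each list but NADPH supply, where all 3 lie below 0.

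The genes whose levels ran most like those of the set were found by Pearson's r of log2(FPKM + 1) over the 9 libraries, as a description. The 9 points fall into 1 unstimulated and 2 stimulated groups, so a high r mostly reflects the difference between them. For Hmox1 they were Psma5, a proteasome subunit, and Ctsc, a lysosomal protease (r = 0.999 each). For Slc7a11 they were Rab11fip1 (r = 0.999) and Tgm2 (r = 0.998), and for Keap1 Gypc (r = 0.997) and Batf (r = 0.996). For Nqo1, which was called in no comparison over the 9 libraries as deposited, the nearest were Ets2 (r = 0.917) and Sf3b1 (r = 0.87).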

How the data were processed

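Groups were taken from the sample labels, and doses, time and mice from the study's methods and drawing of the design. The authors deposited FPKM per gene and library, computed by the sequencing company from poly(A) libraries read from both ends. The tools in the submitters' processing notes, whose roles are not given there, are STAR, StringTie 2.1.6, edgeR, cutadapt 1.9 and DESeq2, with the build mm10. Of the 55335 gene IDs, 55154 matched GENCODE M21 (GRCm38), the source of gene coordinates. Between 42.3% and 45.3% of low values lay within 3% of a whole step, so reads could not be recovered.

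Genes with at least 1 FPKM in 3 or more of 9 libraries were fitted with limma 3.58.1 in R 4.3.3 on log2(FPKM + 1) (3 groups, no block, empirical Bayes with trend), checked on simulated data. Tables were made with Python 3.11.15. Alternatives were 2 other pseudocounts, 2 filters, 4 scalings, 2 forms of empirical Bayes, 6 libraries in the fit, a replicate block, 2 fold thresholds and leaving out libraries. Applying them to the lists of other genes was added after seeing the data. The members and lists were chosen with earlier results of these data known. Every member is named; of each other list, up to 4 genes called in any comparison with the lowest adjusted p with AnxA5, and for likeness the 2 genes with the highest r. Pgd, G6pdx, Prdx5, Txn1, Sesn1, Blvra, Ftl1, Bach1, Cul3, Gpx1 and Gpx4 were named after their values were seen. Errors are SDs over libraries.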

Additional observations from a re-analysis of the deposited data

How the results depend on the processing

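The number of the 10 genes called was 7 to 8 in Model against Control and 5 to 9 in M+AnxA5 against Control over 24 alternatives, within 1.5 times the counts of 8 and 7. In M+AnxA5 against Model it was 0 except with no fold threshold, where it was 1 (Hmox1). Quantile normalization kept 8 calls in Model against Control with Nqo1 in place of Nfe2l2.

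The signs of 3 uncalled genes turned. Nqo1 in Model against Control was 0.070 with TPM, 0.035 with TPM without Gm23935 and AY036118, 0.22 with upper-quartile scaling, 0.38 with quantile normalization and -0.13 to 0.14 when leaving out 1 library, and in M+AnxA5 against Control it was 0.14 with quantile normalization. Gclm in Model against Control was 0.040, 0.0040 and 0.21 with the first 3 of these and -0.19 to 0.17 when leaving out 1 library. Prdx1 in M+AnxA5 against Model was -0.00070 with TPM, -0.031 with quantile normalization, -0.013 to 0.023 when leaving out 1 library and -0.015 without the libraries numbered 2. The cause was not tested.

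For the other pathway genes the 7 calls in M+AnxA5 against Model, and the 4 of the glutathione list, became 0 and 0 with no filter, with a fold of 1.5 and without the libraries numbered 2, 3 and 2 with TPM, and 1 and 0 with 6 libraries. Leaving out 1 library gave 0 to 8 and 0 to 5.

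Over all genes, the 322 calls in M+AnxA5 against Model became 167 with no filter, 79 with a fold of 1.5, 13 without the libraries numbered 2, 139 and 190 without Model replicate 2 and 3, and 156 and 120 without M+AnxA5 replicate 2 and 3. Requiring a mean of 5 FPKM or more left fewer genes to test, so its counts cannot be compared as shares. With it the 8949 calls in Model against Control became 4410 and the 9031 in M+AnxA5 against Control became 4481. The higher and lower calls in Model against Control were 1925 and 7024, 2524 and 5325 with upper-quartile scaling, and 2946 and 4209 with quantile normalization.

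Same-numbered libraries of different groups correlated between 0.0156 and 0.206 in their deviations from the group means. Libraries with different numbers correlated between -0.232 and 0.0993, and most of these values were negative. Control replicate 3 correlated more with Model replicate 1 (0.0993) than with Model replicate 3 (0.0397). The numbers were not taken to pair the samples in the main fit, and whether same-numbered libraries shared a batch was not tested. With the replicate block, the counts of the 10 genes were 8, 0 and 7, as without it. All genes called in M+AnxA5 against Model were 185 with the block and 322 without it. The other pathway genes and the glutathione list had 0 and 0 calls there with the block, and 7 and 4 without it.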
